A study of Homo sapiens with 21 samples.

Results

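Human skin fibroblasts of the BJ line at passage 24 (P24) were compared with the same line at passage 3 (P3), with 3 libraries in each group, and the changes found were set against those reached by passage 33 (P33). The comparison took 6 of the 21 libraries of the series. The count filter and the estimate of spread used all 15 passage libraries, and 15642 of 61544 listed genes passed. With the P3 and P24 libraries alone 14655 passed, so some tested genes entered through reads at other passages. BJ cells are normal fibroblasts of limited replicative lifespan, so a late passage is closer to replicative arrest than an early one. The labels name no drug, transgene or edited allele for the passage groups, and they give passage numbers without population doublings or growth rates, so that "presenescent" for P24 rests on passage number alone. The other passage groups are P11, P30 and P33 with 3 libraries each. A further 6 libraries of P11 cells given 50 ng/ml DOX or DMSO were left out. Whether the 3 libraries of a passage came from independently grown cells is not in the labels, so each p-value speaks for library-to-library spread alone, possibly technical.

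In replicative senescence, cells that have used up their division potential stop cycling for good. Cyclin-dependent kinase inhibitors such as p21 (CDKN1A) and p16 (CDKN2A) hold the cell cycle, nuclear proteins such as lamin B1 are lost, and a set of secreted cytokines, proteases and growth factors, the senescence-associated secretory phenotype (SASP), appears. A late interferon response has also been described in senescent fibroblasts. The comparison asked which of these late changes were already present at P24.

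Library totals were 26335889, 26349740 and 20885657 counts at P3 and 16912452, 18406105 and 21866995 at P24. Long noncoding RNAs took 0.945% to 0.962% of counts at P3 and 1.55% to 1.65% at P24. Summed markers of fibroblasts lay at 21200 to 21900 CPM (counts per 1000000 counts of a library, with sizes scaled by TMM) at P3 and 26900 to 28200 at P24, with each of the 15 markers detected. Of the markers of other cell types, KRT5 and KRT1 of keratinocytes, CD3E and LYZ of leukocytes and TYR, SOX10 and S100B of melanocytes and Schwann cells had no read in the 6 libraries. Other members of these lists were detected: the 11 keratinocyte markers summed to 323 to 351 CPM at P3 and 407 to 426 at P24, with 3 of 6 tested called higher, and the 8 melanocyte and Schwann markers to 31.7 to 34.6 and 41.7 to 48.6. The 8 pericyte and smooth muscle markers summed to 277 to 281 and 249 to 265 CPM, and the 7 adipocyte markers to 30.2 to 34.1 and 23.3 to 24.1. Most of the keratinocyte sum was DSP, most of the melanocyte and Schwann sum MITF and most of the adipocyte sum PPARG. Under 1 CPM in each of the 6 libraries were 7 of the 11 keratinocyte, 6 of the 8 melanocyte and Schwann and 6 of the 7 adipocyte markers. Summed over all 8 markers, leukocyte genes held 1.28 to 1.71 CPM at P3 and 2.3 to 2.87 at P24. The 7 endothelial markers summed to 4.45 to 4.72 and 3.14 to 3.94 CPM. The part of such genes in the results was not tested. In bulk RNA, fewer cells of a kind and less RNA per cell cannot be told apart.

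At P24, 4616 genes were higher than at P3 (29.5% of those tested) and 4820 were lower (30.8%), at an adjusted p under 0.05 in edgeR's quasi-likelihood test. These shares are the background for the member counts of each gene list below. Changes of at least 2-fold leaned upward: 1288 genes rose (8.23%) and 367 fell (2.35%) by that much. Among the 9436 called genes, the 3 libraries of P24 lay wholly above or wholly below those of P3 in 8989. Over all 15642 tested genes this held in 10030, and a call itself selects for such separation. Long noncoding RNAs were mostly on the upper side, with 824 higher and 167 lower of 2284 tested. The even split between rises and falls depends on scaling. Scaling by total counts gave 5646 higher and 3768 lower, or 60.0% of calls upward in place of 48.9%, and upper-quartile scaling gave 58.6%, while the median log2 fold change over all tested genes moved from 0.01 to 0.10 and 0.09.

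By P33, 5916 genes were higher (37.8%) and 5617 lower (35.9%) than at P3. A late change was defined as one of these calls with at least a 2-fold difference, which 2423 genes met upward (15.5%) and 1029 downward (6.58%). Of the late rises, 1562 (64.5%) were already called higher at P24, and 1005 (41.5%) were already 2-fold higher. Among the late falls, 741 (72%) were already called lower, but 231 (22.4%) had reached 2-fold. So late falls were often begun at P24 and seldom complete. These shares rest on the same P3 libraries in both comparisons, so the P3 level enters both.

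The step from P24 to P33, in which 4261 genes rose (27.2%) and 4311 fell (27.6%), divides the changes in place further. Of the late rises, 595 were in place at P24 with no further call, 921 went on rising, 46 receded in part, 824 were not yet called and 37 were called in the opposite direction. The late falls comprised 187 with no further call, 552 that went on falling, 2 that receded, 247 not yet called and 41 in the opposite direction. Median log2 fold changes at P24 were 1.49 for the rises with no further call and 0.97 for those that went on, which reached 1.88 at P33. Falls that went on stood at a median of -0.73 at P24 and -1.32 at P33.

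**Figure D1:**
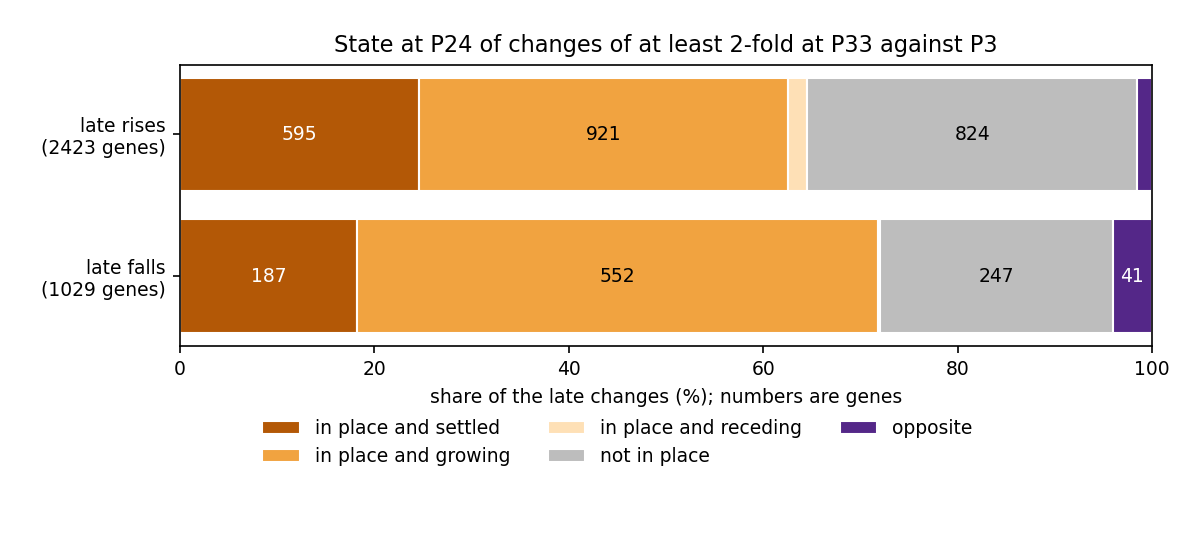
Share of late rises (2423 genes) and late falls (1029 genes), defined by P33 against P3, that stood in each state at P24; the horizontal axis is percent of the late changes and numbers are genes. Late rises in place at P24 make up 64.5% and late falls 72%.

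A comparison that shares no library with P24 against P3 gave lower shares. It also starts later and leaves out changes made between P3 and P11, where 8194 genes were called. Whether the later start or the separate libraries lowered the shares was not tested. From P11 to P33, 5013 genes were higher (32%) and 4894 lower (31.3%), of which 1726 (11%) and 716 (4.58%) changed by at least 2-fold. Of those 1726 rises, 935 (54.2%) were called higher at P24 against P3, to be read against the 29.5% of all tested genes, and 75 were called lower. Of the 716 falls, 293 (40.9%) were called lower at P24 against P3, against 30.8% of all genes, and 114 (15.9%) were called higher.

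Among protein-coding genes with at least 5 CPM in the higher group, the largest rise was that of ABCB1 (chr7:87503017-87713323 in the table's coordinates, minus strand), which encodes the drug efflux pump P-glycoprotein. Its 3 libraries measured 0.693, 0.56 and 0.409 CPM at P3 and 13.8, 14.4 and 15.1 at P24, with no overlap. The rise was 25.4-fold (log2 4.67 ± 0.16 SE, adjusted p = 7.88e-18), and the level went on to 24.9 ± 0.885 CPM (SD, n = 3) at P30 and 50.4 ± 5.75 at P33. At P11 it was still 0.738 ± 0.154. RUNDC3B lies across ABCB1 on the other strand and rose 21.4-fold. With the strandedness of the count step unstated, reads of this pair may not be fully separable. Its neighbour ABCB4, a phospholipid transporter, rose 2.44-fold, from 4.36, 5.84 and 5.53 CPM to 12.5, 14.1 and 11.8. Of 28 tested transporters of the ABC family, 12 were higher and 7 lower at P24, beside 29.5% and 30.8% of all tested genes. Their median log2 fold change was 0.13 against 0.01 for all genes. Without P24 replicate 3, 4 were lower. ABCC9, a regulatory subunit of potassium channels, was among the rises at 2.23-fold.

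The other protein-coding genes with the largest rises carried varied functions. JAM2, a junctional adhesion molecule, stood at 0.774, 0.8 and 0.358 CPM at P3 and at 7.99, 9.8 and 9.44 at P24, and reached 32.6 ± 0.492 at P33. PREX2, an exchange factor for the GTPase Rac, rose 9.17-fold from 1.87, 2.32 and 2.25 CPM to 19.1, 19.2 and 20.7. CSRNP3, a nuclear protein, rose 7.33-fold, GBP4, an interferon-inducible guanylate-binding protein, 8.64-fold, and GNA14, a G protein subunit, 7.36-fold. ZNF704, a zinc finger protein, rose 9.24-fold to 5.03, 5.42 and 4.6 CPM. These 4 were not called between P24 and P33, but GNA14 was 3.33-fold lower at P30 than at P24 (2.63 ± 0.218 CPM), and GBP4 and CSRNP3 were 1.6-fold and 1.53-fold higher there. MT-ATP8, a mitochondrially encoded subunit of ATP synthase, rose 11-fold but overlaps MT-ATP6 on the same strand, which makes its count uncertain. Most of the 13 mitochondrial mRNAs moved the other way, with 8 lower and 1 higher, as in MT-ND1, which fell 1.53-fold from 3477, 2892 and 3327 CPM to 1915, 2307 and 2108. Without P24 replicate 1, 5 were lower.

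Insulin-like growth factor binding proteins are secreted carriers that control access of growth factors to their receptor. IGFBP5 was one of the most changed genes of high level: 2091, 1993 and 2102 CPM at P3 and 8075, 7844 and 8495 at P24, a 3.95-fold rise (adjusted p = 8.86e-20). Its mean at P33 was 9732 ± 345 CPM, so the later step added 1.2-fold. IGFBP3 rose 1.97-fold, from 223, 264 and 240 to 486, 485 and 460 CPM. IGFBP2 went the other way, from 53.4, 51.2 and 55.8 down to 35.1, 36.2 and 31.8, although its level at P33 was 141 ± 5.47. Of 6 tested members, 3 were higher and 2 lower at P24, or 1 lower without P3 replicate 2.

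**Figure D2:**
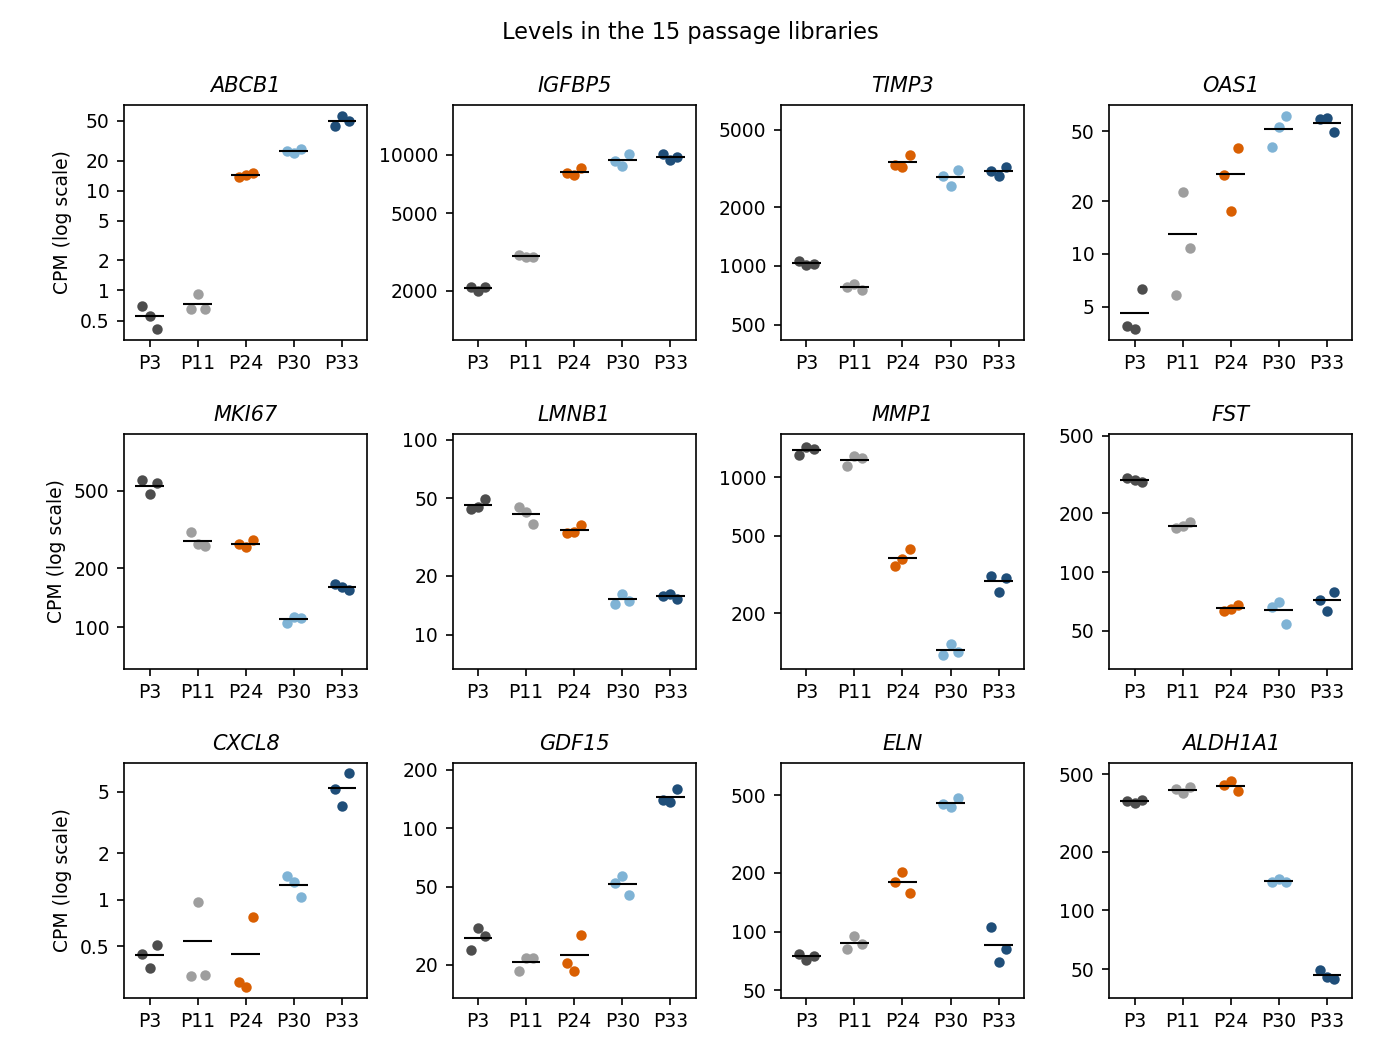
Level of 12 genes in the 15 passage libraries, in CPM on a log scale that differs between panels; points are libraries and bars the mean of 3. ABCB1, IGFBP5 and TIMP3 had risen by P24, MKI67, MMP1 and FST had fallen, and CXCL8 overlapped between P3 and P24.

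Genes of the G2 and M phases, which drive mitosis, fell almost as a block. Of 59 tested, 56 were lower at P24 and 0 higher, with a median log2 fold change of -0.79 against 0.01 over all genes. MKI67, the proliferation marker Ki-67, went from 568, 482 and 545 CPM to 266, 257 and 278, which is 1.99-fold lower (adjusted p = 3.91e-13). CENPF, a kinetochore protein, fell 2.41-fold from 332, 331 and 342 CPM to 143, 136 and 137. NEK2, a centrosomal kinase, fell 2.28-fold, and CENPM, a centromere protein, 2.69-fold. In each of these genes the P24 libraries lay under all P3 libraries. At P11 the list stood at 52 lower and 1 higher, with a median of -0.62, so its greater share was present before P24. All 37 of its late falls were in place at P24. P30 was lower still, with MKI67 at 110 ± 3.94 CPM, and P33 was above P30 at 161 ± 4.99.

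Promoters of this list are shown because the cell cycle elements that repress or drive it lie close to the start. The cell cycle genes homology region (CHR, letters TTTGAA on either strand) bound by the DREAM complex was present within 250 bases before the RefSeq start in 24 of 48 promoters of the genes that fell (50%), against 968 of 11032 tested genes with a promoter sequence (8.8%). CCAAT on either strand was present in 36 of the 48 (75%), against 34.7% of all. The motif TTTAAA, a CHR variant, was in 22.9% and 7.5%. The 120-base stretches below come from RefSeq on GRCh38.p14, run 5′ to 3′ on the gene's strand, and carry TTTGAA and CCAAT matches in capitals. They belong to 4 genes that fell: CDC20, an activator of the anaphase-promoting complex (2.22-fold), KIF18A, a mitotic kinesin (2.11-fold), DLGAP5, a spindle protein (2-fold), and CDK1, the mitotic kinase (2-fold). Among the 51 promoters of tested list members, called or not, the CHR, CCAAT and CHR variant letters were in 49%, 74.5% and 23.5%. These shares thus describe the list and not its change at P24. A letter match is a description and shows no binding.
CDC20 (chr1:43358859-43358978, plus strand): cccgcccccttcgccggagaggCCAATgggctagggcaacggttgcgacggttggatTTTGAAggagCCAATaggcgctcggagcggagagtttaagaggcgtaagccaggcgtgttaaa
KIF18A (chr11:28108157-28108276, minus strand): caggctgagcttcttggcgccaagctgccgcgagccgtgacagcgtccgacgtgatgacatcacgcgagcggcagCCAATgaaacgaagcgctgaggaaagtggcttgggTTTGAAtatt
DLGAP5 (chr14:55191632-55191751, minus strand): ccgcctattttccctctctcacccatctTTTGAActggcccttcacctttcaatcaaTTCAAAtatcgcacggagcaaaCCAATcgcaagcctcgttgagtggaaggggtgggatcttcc
CDK1 (chr10:60778113-60778232, plus strand): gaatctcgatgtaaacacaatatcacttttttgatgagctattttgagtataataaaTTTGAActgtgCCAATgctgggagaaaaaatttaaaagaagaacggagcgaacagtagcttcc

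DNA replication genes fell as well, by less. Of 49 tested members of the S phase list, 41 were lower and 2 higher (1 higher in 4 of the fits that left out a P3 or P24 library), at a median of -0.48. MCM2, a subunit of the replicative helicase, went from 77.4, 75.2 and 86.8 CPM to 38.4, 35 and 35.1, a 2.2-fold fall. MCM7, a subunit of the same helicase, fell 2.03-fold and the polymerase subunit POLD1 1.97-fold. The E2F letters TTTCCCGC, on either strand, were in 9 of 33 promoters of the genes that fell (27.3%) and in 2.2% of all. Among tested members of the list, called or not, they were in 10 of 41 (24.4%). Homologous recombination and Fanconi genes, which repair broken and crosslinked DNA, were lower in 17 and higher in 1 of 28 (2 higher without P24 replicate 1), among them FANCI (1.64-fold), the helicase BLM (1.62-fold) and XRCC3 (1.62-fold). At P11 this list had 4 lower and 6 higher, so most of its falls came later than those of the mitotic genes. Among 16 telomere genes, 9 were lower and 0 higher, beside 30.8% and 29.5% of all tested genes. Scaling by total counts gave 2 higher. The falls included ACD, a shelterin protein, at 1.74-fold, and the telomerase factors NOP10 and WRAP53 at 1.9-fold and 1.67-fold.

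Nuclear lamina and chromatin proteins were lower in 20 and higher in 4 of 29, with a median of -0.32 at P24 and -0.74 at P33. DNMT1, the maintenance DNA methyltransferase, fell 1.9-fold, from 326, 287 and 299 CPM to 164, 156 and 159. HMGB2, a DNA-bending protein, fell from 128, 124 and 138 to 70.4, 72.9 and 65.6 CPM, and HMGB3 fell 1.96-fold. HMGB2 was lowest at P30 (43.7 ± 2.89 CPM, 1.59-fold under P24) and back at 69.8 ± 0.867 at P33. LMNB1, the gene of lamin B1, was only partly down, at 44.1, 45 and 49.6 CPM at P3 and 33.3, 33.7 and 36.5 at P24, a 1.34-fold fall (adjusted p = 5.97e-06). It dropped to 15.2 ± 0.94 at P30 and 15.8 ± 0.425 at P33.

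Replication-dependent histones normally make messages without a poly(A) tail, and these libraries were poly(A)-selected. Of 61 such genes, 23 passed the count filter. Of the 23, 10 were higher and 1 lower at P24, with a median of 0.60, and 22 were higher at P33. H2BC21 went from 6.35, 6.48 and 6.55 CPM to 14.7, 13.6 and 15.3, a 2.25-fold rise. H2AC6 rose 2.17-fold and H2BC4 1.56-fold. At P11 the list had 3 higher and 4 lower.

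In the core senescence panel of 16 genes, 4 were higher and 9 lower at P24, or 2 higher without P3 replicate 1 or without P24 replicate 2. Among 7 cyclin-dependent kinase inhibitors 2 were higher and 4 lower, with 0 higher without P3 replicate 1 or 3 or P24 replicate 2, and 1 higher without P24 replicate 1 or 3. CDKN1A measured 204, 213 and 202 CPM at P3 and 214, 222 and 235 at P24, a 1.08-fold difference (adjusted p = 0.0318) that lost its call in 4 of the 6 fits without 1 of these libraries (without P3 replicate 1 or 3 or P24 replicate 2 or 3, adjusted p = 0.0936, 0.122, 0.0547 and 0.122). It reached 330 ± 6.44 at P30 and 303 ± 1.86 at P33. CDKN2B, the p15 inhibitor, stood at 12.2, 13.5 and 12 CPM at P3 and at 18.4, 15.6 and 13.7 at P24. Its call (adjusted p = 0.0319) was lost without P3 replicate 1 or 3 or P24 replicate 1 or 2 (0.0886, 0.0855, 0.206 and 0.0564), and its main rise to 45.1 ± 8.45 CPM came by P33. CDKN2A fell from 15.4, 18.2 and 18.3 to 11.6, 9.75 and 11.7 CPM (1.57-fold, adjusted p = 1.13e-05), and the count does not separate its p16 and ARF transcripts. CDKN1B, the p27 inhibitor, fell 1.32-fold.

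Other panel members followed no single course. RB1 was not called (adjusted p = 0.188). GLB1, the lysosomal beta-galactosidase behind the senescence stain, was 1.1-fold lower at P24 with an adjusted p of 0.0442, a call lost without P3 replicate 1 or 2 or P24 replicate 2 or 3 (0.0534, 0.201, 0.0514 and 0.238). H2AZ1, a histone variant, fell 1.45-fold and HMGB1, a chromatin protein that can be secreted, 1.54-fold.

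Interferon-stimulated genes, the antiviral effectors that follow interferon signalling, formed the most one-sided rise among the lists of at least 15 genes. At P24, 44 of 61 were higher and 0 lower, at a median of 0.64, and 21 of them had reached 2-fold. Already at P11, 36 of the 61 genes were higher than at P3 and 0 lower, at a median of 0.435. Of their 31 late rises, 29 were in place. RSAD2, the antiviral enzyme viperin, measured 1.34, 0.72 and 1.53 CPM at P3 and 18.8, 9.47 and 21.5 at P24 (14.2-fold, log2 3.82 ± 0.42 SE, adjusted p = 1.78e-08). OAS1, which senses double-stranded RNA, measured 3.87, 3.72 and 6.29 CPM and then 28.2, 17.6 and 40 (6.38-fold). BST2, or tetherin, which holds virus particles at the membrane, rose 6.24-fold from 0.855, 0.76 and 1.28 to 5.56, 3.89 and 8.02 CPM, and CMPK2, next to RSAD2, rose 5.6-fold. In these 4 genes the groups did not overlap.

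The libraries of P24 differed widely in this list. P24 replicate 2 was the lowest of the 3 in 43 of the 44 risen genes and replicate 3 the highest in 42. Relative to each gene's P3 mean, the list's median of log2(CPM + 0.5) was 0.70, 0.25 and 0.91 in the P24 libraries, and -0.05, -0.14 and 0.17 at P3. P11 spread more, at -0.01, 0.81 and 0.37, while P33 lay at 0.99, 1.08 and 0.89. In 33 of the 44 the lowest P24 library lay above the highest P3 library. Among all called genes, in either direction, the groups were separate in 8989 of 9436, so this list separated less often. The count of higher genes was 45 without P24 replicate 2, 37 without replicate 3 and 40 without replicate 1.

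Interferon-stimulated response elements sit close to the start of many of these genes, so 4 promoters are shown. A pair of GAAA letters with any 2 bases between them, on either strand, was in 21 of 35 promoters of the risen genes (60%) and in 283 of 11032 tested genes (2.6%), within 250 bases before the start. The 120-base stretches below are of the same source, build and reading direction as above, with each match in capitals (a pair of TTTC where it lies on the other strand, and run together where matches overlap). BST2 is described above. IFI44L, an interferon-induced protein, rose 6.04-fold, HERC5, a ligase for the ubiquitin-like protein ISG15, 5.27-fold, and RTP4, a receptor transporter protein, 3.13-fold. RTP4 stayed low, with 0.947, 1.26 and 1.46 CPM at P24, and was at 0.422 ± 0.135 at P33. Among tested members of the list, called or not, the pair was in 25 of 49 promoters (51%). Much of the excess over all genes is thus a trait of the list. No binding is shown by a match.
BST2 (chr19:17405690-17405809, minus strand): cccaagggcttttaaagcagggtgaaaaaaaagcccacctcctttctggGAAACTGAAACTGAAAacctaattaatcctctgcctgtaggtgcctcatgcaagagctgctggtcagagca
IFI44L (chr1:78620320-78620439, plus strand): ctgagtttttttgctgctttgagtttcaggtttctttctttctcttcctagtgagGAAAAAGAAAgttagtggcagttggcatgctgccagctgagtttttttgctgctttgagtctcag
HERC5 (chr4:88456990-88457109, plus strand): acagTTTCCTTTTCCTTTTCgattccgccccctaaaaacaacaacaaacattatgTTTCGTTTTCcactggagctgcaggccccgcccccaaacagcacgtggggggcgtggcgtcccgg
RTP4 (chr3:187368265-187368384, plus strand): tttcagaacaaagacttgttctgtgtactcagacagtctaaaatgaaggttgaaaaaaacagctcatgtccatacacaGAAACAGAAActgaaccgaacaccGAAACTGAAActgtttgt

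A list of interferon ligands, receptors and nucleic acid sensing genes did not share the rise. Of its 21 tested members, SAMHD1 and SOCS3 among them, 8 were higher and 7 lower, beside 29.5% and 30.8% of all tested genes, with a median of 0.07. TLR3, the endosomal sensor of double-stranded RNA, rose 2.54-fold from 2.69, 2.6 and 2.92 CPM to 6.98, 5.53 and 8.11. SAMHD1, a nucleotide hydrolase, rose 1.63-fold, and SOCS3, an inhibitor of cytokine signalling, fell 1.76-fold. Scaling by total counts or by the upper quartile left 3 lower in place of 7.

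**Figure D3:**
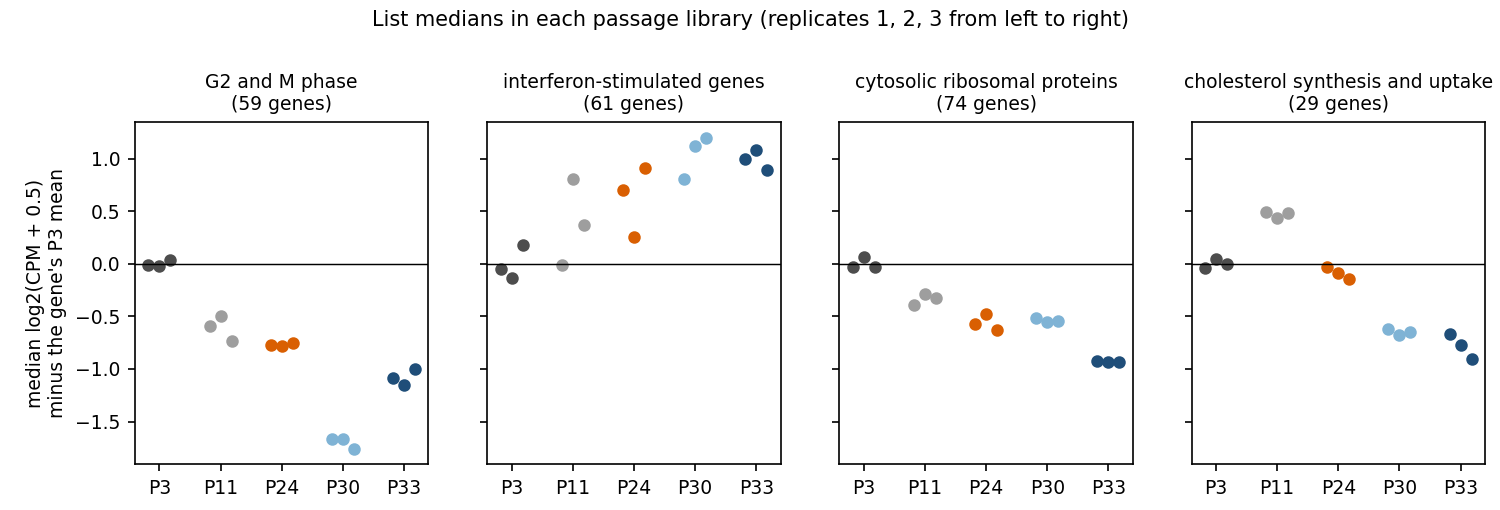
Median over a list of log2(CPM + 0.5) minus the gene's mean at P3, in each of the 15 passage libraries, with 1 point per library. G2 and M phase genes are low in the 3 P24 libraries (59 genes), interferon-stimulated genes (61 genes) spread from 0.25 to 0.91 at P24, ribosomal protein genes (74 genes) are lower than at P3, and cholesterol genes (29 genes) lie near the P3 level.

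Cytokines and growth factors of the SASP list were divided at P24. Of 41 tested, 16 were higher and 15 lower with a median of -0.01, beside 29.5% and 30.8% of all tested genes, compared with 27 higher, 5 lower and a median of 0.73 at P33. Of their 20 late rises, 9 were in place. EREG, the growth factor epiregulin, was an early riser, from 131, 123 and 131 CPM to 285, 280 and 445 (2.63-fold), and climbed to 1217 ± 135 at P33. IL7, a lymphocyte growth factor, rose 2.41-fold, from 2.69, 2.36 and 2.15 CPM to 5.5, 5.31 and 6.56. CXCL12, a chemokine, fell from 207, 212 and 213 to 80.9, 75 and 90.2 CPM (2.56-fold) and was at 17.9 ± 2 by P33. IL6, the signature cytokine of the SASP, was lower at P24, with 4.85, 4.68 and 3.22 CPM at P3 and 2.07, 1.81 and 2.55 at P24 (1.98-fold, adjusted p = 0.000743). CXCL8, or interleukin-8, lay at 0.448, 0.36 and 0.512 CPM at P3 and 0.296, 0.274 and 0.775 at P24, with overlapping groups (adjusted p = 0.851), and its sign turned without P3 replicate 2 (log2 -0.02) or P24 replicate 3 (log2 -0.59).

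Secreted proteases and their inhibitors split into 9 higher and 16 lower of 31, at a median of -0.20. MMP1, the interstitial collagenase, fell 3.55-fold, from 1299, 1424 and 1395 CPM to 352, 382 and 427 (adjusted p = 8.17e-17). PLAT, the tissue plasminogen activator, rose 3.34-fold from 99.7, 89.8 and 94.9 CPM to 299, 295 and 356, was at 163 ± 9.68 at P30 and reached 1015 ± 9.36 at P33. TIMP3, an inhibitor of metalloproteinases held in the matrix, rose 3.29-fold from 1065, 1009 and 1028 CPM to 3278, 3231 and 3706. Its level at P33, 3054 ± 167, was slightly lower (log2 -0.16 against P24, adjusted p = 0.03).

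Deep falls among protein-coding genes included a signalling receptor, ligands and enzymes. PENK, the enkephalin precursor, fell 5.28-fold from 33.2, 28.2 and 34.1 CPM to 5.8, 6.79 and 5.52. KIT, the stem cell factor receptor, fell 4.91-fold from 49.9, 52.3 and 48 CPM to 10.9, 11.8 and 8.21. FST, the activin antagonist follistatin, fell 4.51-fold from 302, 295 and 288 CPM to 63.4, 64.8 and 68.1 and was not called again by P33. The cGMP-dependent kinase PRKG2 fell 5.12-fold after 12.1 ± 0.419 CPM at P11, so its fall lay after P11. EIF3CL fell 5.02-fold, but its near-identical copy EIF3C makes the split of its reads uncertain. APOE, a lipid carrier, fell 3.39-fold and the transcription factor BNC1 3.34-fold.

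Among matrix genes, rises outnumbered falls at P24 and some of the rises were later undone. Of 61 collagen and elastic fibre genes, 32 were higher, 16 lower and 13 not called at P24 (median 0.14). The shares higher and lower over all tested genes were 29.5% and 30.8%. In the step from P24 to P33, 20 genes of this list rose and 32 fell. At P33, 28 were higher and 28 lower than at P3, and 10 of the 14 late rises were in place at P24. ELN, the gene of elastin, stood at 77.1, 71.3 and 75.3 CPM at P3 and 180, 202 and 158 at P24 (2.41-fold), rose to 456 ± 25.8 at P30 and was back at 85.4 ± 18 at P33. COL3A1 measured 686, 717 and 686 CPM and then 1379, 1375 and 1319 (1.95-fold), and 871 ± 47.4 at P33. COL1A2 measured 6019, 6147 and 5948 CPM and then 9958, 10210 and 9238 (1.62-fold), and 5907 ± 359 at P33. By contrast COL8A1, a short-chain collagen, rose 2.71-fold and went on to 205 ± 23.8, and LOXL4, a collagen crosslinker of the lysyl oxidase family, rose 3.25-fold from 117, 123 and 117 to 377, 382 and 404 CPM, although it was at 145 ± 2.25 at P30 before 445 ± 53.5 at P33.

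Contractile and TGF-beta response genes were divided at P24, with 12 higher and 11 lower of 31, against 29.5% and 30.8% of all tested genes, and a median of 0.02. Without genes that overlap another on the same strand, 7 were higher. At P33 the list stood at 4 higher and 24 lower, with a median of -0.72, so most of its fall came after P24. PPP1R14A, an inhibitor of myosin phosphatase, was among those already down, from 6.52, 5.08 and 5.83 CPM to 2.84, 3.01 and 2.69.

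Cholesterol synthesis and uptake showed a similar delay. Of 29 genes, 7 were higher and 10 lower at P24 (median -0.05), close to the 29.5% and 30.8% of all tested genes. At P33, 0 were higher and 25 lower (median -0.82). At P11, 26 had been higher and 1 lower. HMGCS1, the first committed synthase, was still raised at P24, at 90.2, 103 and 96 CPM at P3 and 153, 163 and 128 at P24, before 64.4 ± 2.87 at P33. The sterol dehydrogenase NSDHL was down 1.62-fold. Without P24 replicate 1, 4 genes of the list were higher.

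Lysosomal genes were lower at P24, with 27 lower and 7 higher of 49, beside 30.8% and 29.5% of all tested genes. Their median was -0.21, and at P33 against P3 it was 0.05, beside 0.03 for all tested genes. There 17 were higher and 20 lower, beside 37.8% and 35.9% of all tested genes. From P24 to P33, 29 rose and 10 fell. CTSK, the protease cathepsin K, fell 2.45-fold, from 770, 740 and 772 CPM to 314, 337 and 280, and stood at 611 ± 12.7 at P33. NPC1, the lysosomal cholesterol transporter, fell 2.4-fold and TPP1, the lysosomal tripeptidyl peptidase, 2.38-fold.

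Stress pathways differed among themselves. NRF2 targets, the antioxidant defence, had 14 higher and 6 lower of 29, beside 29.5% and 30.8% of all tested genes, with a median of 0.14. SLC7A11, the cystine importer, rose 2.08-fold from 20, 22.4 and 21.9 CPM to 43.9, 41.6 and 48, and reached 196 ± 7.26 at P33. Haem oxygenase HMOX1 and malic enzyme ME1 each rose 1.86-fold. In the unfolded protein and integrated stress response list 16 were higher and 14 lower of 41 (median 0.07), beside 29.5% and 30.8% of all tested genes. At P33, 31 were higher and 8 lower. PPP1R15A, the phosphatase subunit that ends the integrated stress response, fell 2.93-fold from 414, 370 and 405 CPM to 127, 145 and 134 and was at 408 ± 23.6 by P33. CEBPB, a transcription factor of the SASP, rose 2.41-fold, and DDIT4, an inhibitor of mTOR signalling, 2.02-fold.

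Immediate early genes, which respond within minutes to growth factors and to handling of the culture, were called lower in 10, higher in 2 and not called in 11 of 23 at P24, against 30.8% of all tested genes lower and 29.5% higher, with a median of -0.35 (1 higher without P24 replicate 3, and 4 under scaling by total counts). At P33, 13 were higher and 5 lower than at P3. KLF4 went from 38.2, 39 and 38.2 CPM to 18, 19.8 and 18.8 (2.04-fold lower) and FOSL1 fell 1.69-fold. FOS was at 1.34, 1.52 and 2.3 CPM at P3 and at 0.651, 0.657 and 0.593 at P24, groups that did not overlap, but its adjusted p was 0.337 in the fit that shares its spread with P30 (10.7 ± 8.21) and P33 (38.1 ± 35.7). Fitted on the P3 and P24 libraries alone, it was lower (log2 -1.40, adjusted p = 0.000592).

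Ribosomal protein and respiratory chain genes fell together. Of 74 cytosolic ribosomal protein genes, 69 were lower and 2 higher (1 higher without P24 replicate 2), with a median of -0.58 at P24 and -0.93 at P33. Already at P11, 62 of the 74 were lower than at P3 and 3 higher. RPS28 fell 2.37-fold, from 38.7, 54.4 and 47 CPM to 20.8, 20.9 and 17.7, and RPL36 and RPS21 fell 2.12-fold each. Without the 37 genes that overlap another on the same strand, 36 were lower and 1 higher. Of 48 nuclear genes of the respiratory chain, 42 were lower and 2 higher (1 higher without P3 replicate 2), at a median of -0.51, among them NDUFS5 of complex I, which fell 1.89-fold from 401, 396 and 400 CPM to 222, 231 and 182. ATP5F1E of ATP synthase fell 1.94-fold and NDUFA2 of complex I 2.18-fold. Of the 48 respiratory chain genes, 39 were already lower at P11 than at P3 and 3 were higher. Among 28 genes of hypoxia and glycolysis, 19 were lower and 7 higher, beside 30.8% and 29.5% of all tested genes. The enolase ENO2 fell 2.63-fold, while PDK1, which restrains pyruvate entry into mitochondria, rose 1.95-fold and the collagen prolyl hydroxylase P4HA1 1.81-fold.

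Transcript length moved with these values. Among protein-coding genes in 5 equal bins of exonic length (longest GENCODE v29 transcript), the median log2 fold change at P24 went from -0.22 in the shortest bin (207 to 2209 nucleotides, 461 higher and 1203 lower) to 0.08 in the longest (1012 higher and 674 lower). The slope was mostly present at P11 against P3, where the shortest bin stood at -0.17, and between P11 and P24 that bin moved by -0.06. Of the ribosomal protein genes 45 of 74, and of the respiratory chain genes 31 of 48, lay in the shortest bin, and the bin medians alone would give averages of -0.15 for each list. With an offset for length in each library, 69 ribosomal protein and 41 respiratory chain genes were still lower, at medians of -0.50 and -0.49. The part of transcript length in other results was not tested beyond that offset.

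**Figure D4:**
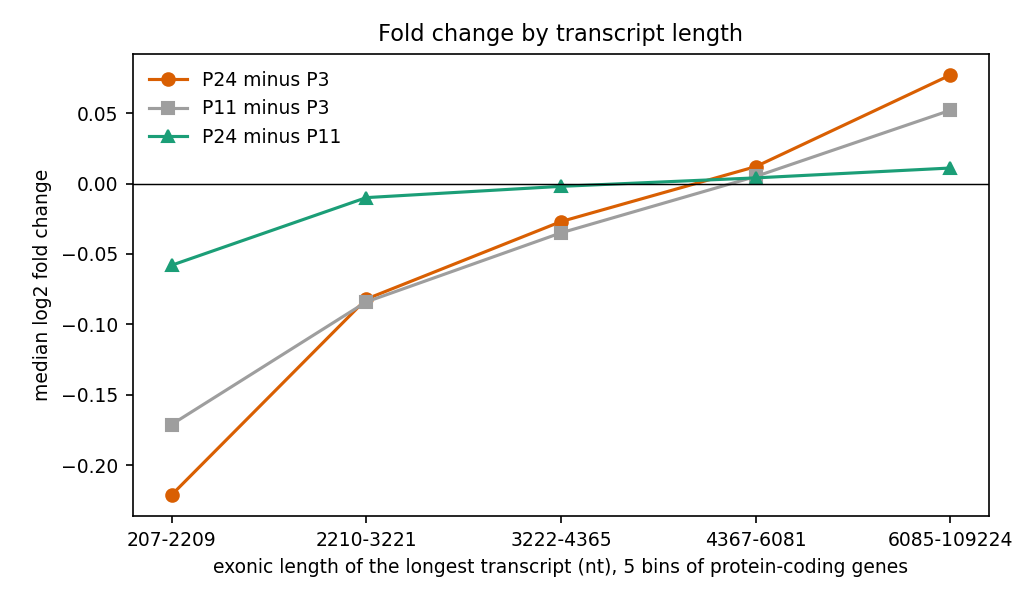
Median log2 fold change of protein-coding genes in 5 bins of exonic transcript length (horizontal axis, nucleotides) for P24 minus P3, P11 minus P3 and P24 minus P11. The shortest bin lies at -0.22, -0.17 and -0.06.

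**Figure D5:**
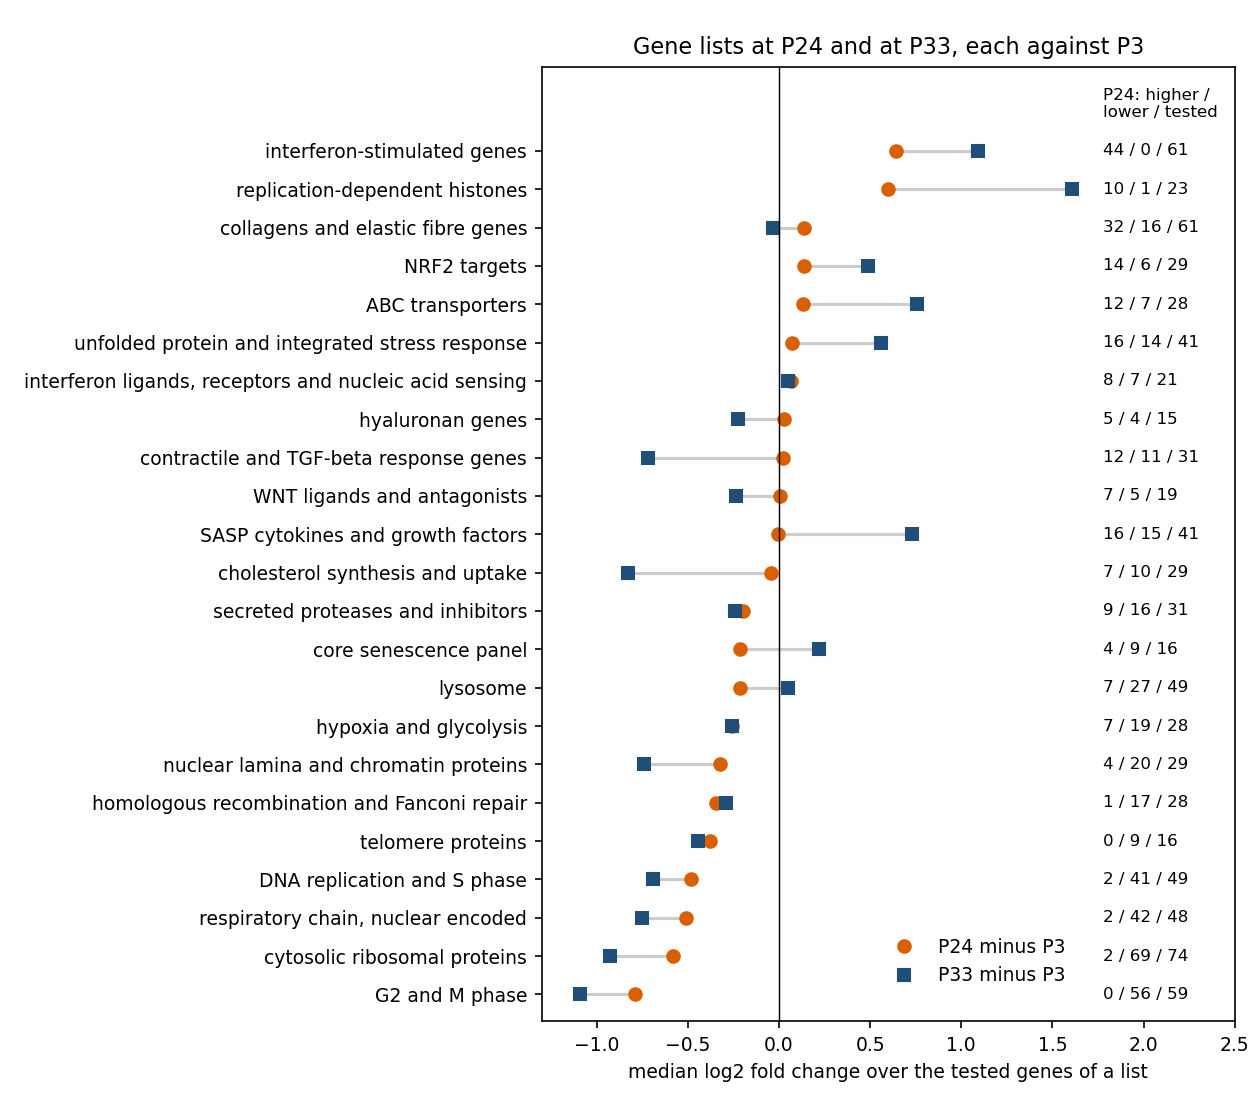
Median log2 fold change over the tested genes of lists with at least 15 tested, for P24 minus P3 (circles) and P33 minus P3 (squares), both against the same P3 libraries; the numbers at right count members higher, lower and tested at P24. G2 and M phase genes were at -0.79 and -1.09, and SASP genes at -0.01 and 0.73.

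The late changes with the largest P33 differences in each class give the range of states at P24. Among rises that were under way but small, LAMP3, a membrane protein of lysosomes, had 5, 3 and 3 reads at P3, 15, 6 and 25 at P24 and 720, 707 and 750 at P33. SLITRK6, a neuronal membrane protein, had 2, 2 and 0 reads, then 16, 20 and 17, then 226, 198 and 252. PCDH1, a protocadherin, went from 1, 1 and 4 to 22, 30 and 25 and on to 189, 193 and 221 reads. KLHDC7B had no read at P3 and 0, 2 and 2 reads at P24, which is under any firm level, and its call (adjusted p = 0.0244) was lost without P3 replicate 1 or 2 or P24 replicate 2 or 3 (0.0561, 0.057, 0.0762 and 0.0697). These low counts give no reliable fold.

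Rises that had passed their peak by P33 included DOCK8, an exchange factor for Cdc42, at 1.51, 1.64 and 1.64 CPM at P3, 9.41, 10.1 and 8.52 at P24 and 6.05 ± 0.695 at P33. CLVS1, GJA3 (a connexin) and TMEM178B behaved alike, with rises of 5.25-fold, 4.88-fold and 4.72-fold at P24. CLVS1 had already reached 9.8 ± 1.19 CPM at P11, while GJA3 (2.43 ± 0.154) and TMEM178B (1.36 ± 0.202) had not risen there.

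Falls under way at P24 included C1orf115, from 41.2, 38.7 and 42.9 CPM to 15.3, 16.8 and 15.3 (2.59-fold) and 2.17 ± 0.273 at P33. EPB41L3, a membrane skeleton protein, went from 103, 98.5 and 99.5 CPM to 58.9, 62.5 and 60.9 and then 6.97 ± 1.53. CNTN3, a contactin of the immunoglobulin family, fell 1.48-fold by P24 and was at 1.42 ± 0.165 CPM at P33.

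Other late changes were not called at P24. GPAT2, an acyltransferase, measured 5.21, 5.4 and 5.48 CPM at P3 and 4.85, 4.93 and 5.06 at P24, all 3 slightly under P3 (adjusted p = 0.467), then 0.268 ± 0.0782 at P33. MEDAG, AJAP1, an adherens junction protein, and the receptor EPHB6 were within 1.06-fold of P3 at P24, were not called (adjusted p = 0.708, 0.582 and 0.668) and fell to 0.414, 0.689 and 0.8 CPM by P33. Their signs turned under scaling by total counts (log2 0.02, 0.01 and 0.03), and in MEDAG also without P3 replicate 1 and in AJAP1 without P3 replicate 3 (log2 0.01 each). GAL, the neuropeptide galanin, was 1.2-fold lower (adjusted p = 0.224). Late rises without a call at P24 included CXCL8 and FOS, given above, FOSB (adjusted p = 0.559), the RAS-related DIRAS3 (0.164) and the transcription factor EGR2 (0.557). FOSB and DIRAS3 turned sign without P24 replicate 3 (log2 -0.22 and -0.01).

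A small set moved at P24 against its later course: 37 late rises were lower and 41 late falls were higher than at P3. DDIT3, the stress factor CHOP, went from 45.5, 41.1 and 42.9 CPM to 31.5, 30.8 and 30.6 (adjusted p = 0.00014) and then to 214 ± 30 at P33. GDF15, a stress-induced cytokine, stood at 23.7, 30.8 and 28.1 CPM and then 20.3, 18.5 and 28.2, which overlap. Its call at P24 (adjusted p = 0.0368) was lost without P3 replicate 2 or 3 (0.198 and 0.0727) and without P24 replicate 1 or 2 (0.141 and 0.231). Scaling by total counts gave 0.157. PAPPA, a protease that cleaves IGF-binding proteins, fell from 95.2, 95.9 and 90.7 to 81.4, 79.8 and 84.7 CPM and reached 395 ± 24.3, and its call was lost under scaling by total counts (0.0691). KCP, a secreted protein with repeats that bind growth factors of the BMP family, was low at P3 (0.815, 0.88 and 0.972 CPM) and lower at P24 (0.414, 0.493 and 0.501), with 12.9 ± 1.52 at P33. CYP1B1, a target of the aryl hydrocarbon receptor, fell 3.61-fold to 2.31, 2.85 and 2.19 CPM and was at 18.6 ± 2.79 at P33, and ULBP1, a ligand for natural killer cells, fell 3.42-fold before 6.4 ± 0.672.

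In the other direction, ALDH1A1, a retinaldehyde dehydrogenase, measured 366, 357 and 367 CPM at P3 and 441, 459 and 410 at P24 (1.2-fold higher) and 46.6 ± 2.56 at P33. CPXM2, a carboxypeptidase-like secreted protein, rose 1.62-fold from 49.7, 46.3 and 46.5 CPM to 73.4, 78.5 and 78.4 and fell to 10.1 ± 0.731. TINAGL1, a matrix protein, rose 1.74-fold and ended at 0.985 ± 0.383. The transcription factor ZIC1 rose 1.34-fold and the integrin ligand EDIL3 1.17-fold, and HAPLN1, which links hyaluronan to proteoglycans, rose 2.12-fold, from 3.67, 4.12 and 3.43 to 7.46, 8.82 and 7.61 CPM, with 1.62 ± 0.598 at P33.

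Hyaluronan and WNT genes were close to the background of 29.5% higher and 30.8% lower among all tested genes. Of 15 hyaluronan genes, 5 were higher and 4 lower. HMMR, the hyaluronan-mediated motility receptor that also acts in mitosis, fell 1.99-fold, and UGDH, which makes the sugar precursor of hyaluronan, rose 1.66-fold. Of 19 tested genes in the list of WNT ligands and antagonists, 7 were higher and 5 lower (3 lower without P24 replicate 3), with WNT5A up 1.28-fold and WNT2B up 1.59-fold. The transcription factor TCF7, which is also counted in this list, fell 1.44-fold. Fibroblast identity markers were higher in 7 and lower in 5 of 15 (46.7% and 33.3%), to be read against the same background. The receptor PDGFRA was up 1.68-fold, from 60.9, 66.5 and 65.8 CPM to 103, 107 and 113.

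Some genes named here overlap the span of another gene on the same strand, so their counts are uncertain: ABCC9, JAM2, PREX2, GNA14, ZNF704, APOE, NEK2, MCM7, POLD1, DNMT1, HMGB1, RB1, GLB1, IL7, COL3A1, NPC1, TPP1, RPL36, ENO2, P4HA1, PDGFRA, CLVS1, TMEM178B, DIRAS3, EGR2, DDIT3, GDF15, CYP1B1, KCP, CPXM2 and TINAGL1. Of the 15642 tested genes, 4989 have such an overlap, as do 3020 of the 9436 called.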

How the data were processed

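Total RNA of BJ fibroblasts was sequenced after poly(A) selection, per the labels' protocols. The deposited table gives raw counts of each gene, which the authors produced with cutadapt 3.3, HISAT2 2.1.0, SAMtools 1.11 and featureCounts 2.0.1 on hg38 (GRCh38.p13), with FastQC 0.11.9 and DESeq2 1.34.0 also listed, per the submitters' processing notes, which give no order or settings. Whether counting used strand is unknown here. The 15 passage libraries were fitted together with edgeR 4.0.16 (R 4.3.3), with TMM factors from 0.933 to 1.07, a count filter of 10 (filterByExpr), the quasi-likelihood test and Benjamini-Hochberg adjustment over 15642 genes, called at 0.05. Standard errors are the log2 fold change over the square root of F. The DOX and DMSO libraries stayed out of this fit: of 9429 genes lying wholly inside another on the same strand, 3950 had reads there and 0 in the passage libraries.

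Named genes were the core senescence panel, the 10 largest rises and 10 largest falls with at least 5 CPM, up to 3 genes of each list, and the 5 largest late changes of each class. Not each of these is printed, and some genes and a list are not reported here. The genes and lists were chosen with earlier results of these data known. Promoters shown are of list members that changed and hold the motif, and were chosen after their values were seen. RefSeq promoters matched 11032 tested genes by symbol. In simulated counts for P24 against P3 over 15642 genes, 91% of 1.5-fold, 98.5% of 2-fold and 100% of 4-fold changes were recovered, and 7.66% of calls were false. The simulation changed only 200 genes, all above a count floor, and gave every gene the same spread (5.04%). In the data 9436 genes were called and spread differs by gene, so these are not error rates of the real comparison. Alternatives covered scaling, tool (DESeq2 1.42.0), filters, samples in the fit, overlapping genes, the definition of a late change and each library left out. A length correction was added after seeing the data.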

Additional observations from a re-analysis of the deposited data

Results flagged for a closer look

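In 13 of the named genes the change at P24 against P3 was called in the direction opposite to a late change, which is a call of at least 2-fold at P33 against P3, and the step between them was itself tested as P33 against P24 in edgeR. The log2 difference of P33 minus P24 was 4.75 in KCP, 3.58 in ULBP1, 2.93 in CYP1B1, 2.79 in DDIT3, 2.69 in GDF15, 2.27 in PAPPA and 2.04 in IGFBP2, which were lower at P24 than at P3 and higher at P33. It was -3.70 in TINAGL1, -3.56 in ZIC1, -3.24 in EDIL3, -3.23 in ALDH1A1, -2.93 in CPXM2 and -2.27 in HAPLN1, which were higher at P24 and lower at P33. The adjusted p of this step ran from 2.01e-24 in ALDH1A1 to 2.37e-11 in HAPLN1 among the genes that fell, and from 7.49e-22 in PAPPA to 6.49e-12 in ULBP1 among those that rose. The early move was small in PAPPA (log2 -0.20) and EDIL3 (log2 0.22), and that of GDF15 was not called in several other fits. Below that 2-fold limit, 4 more named genes were called in opposite directions at P24 and P33 against P3. Their log2 difference of P33 minus P24 was 1.72 in IL6, 1.39 in PMAIP1, -1.20 in HMGCS1 and -1.27 in DSP.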

How the results depend on the processing

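The counts of genes higher and lower stayed within 1.5 times of those reported under all alternatives, at 4255 to 4687 and 4371 to 4905 with 1 library left out. So did the others with 1 library left out: 1266 to 1338 genes at least 2-fold higher, 363 to 387 lower, 1463 to 1585 late rises and 706 to 770 late falls in place, 31 to 41 and 37 to 45 opposite, and 874 to 938 and 274 to 303 changes from P11 to P33 shared. The number of late changes also moved in these fits. As shares, 56.7% to 63.8% of late rises were in place with 1 library left out, each under the 64.5% of the main fit. For late falls the shares were 68.2% to 72.2%, beside 72%. Scaling by total counts left 431 of 674 late falls in place (63.9%). A filter of 10 CPM, with 9683 genes tested, left 339 genes 2-fold higher, 108 lower, 615 of 703 late rises (87.5%) and 356 of 399 late falls (89.2%) in place, 23 and 18 opposite, and 371 and 130 from P11 to P33, and with no count filter 47.7% of late rises and 65.9% of late falls were in place. Without genes overlapping on the same strand there were 837 and 232 genes 2-fold changed and 1011 late rises in place. Late changes taken at P30 gave 8 opposite rises. Without a minimum fold there were 3506 and 3862 in place and 258 and 315 opposite. A test against 1.5-fold (glmTreat) called 636 genes lower.

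Among 148 named genes, 3273 of 3334 pairs of gene and setting kept direction and side of the threshold. Signs turned in genes that were not called: RB1 (0.014 by total counts, 0.0040 by upper quartile), MEDAG (0.018 and 0.0074), AJAP1 (0.0089 by total counts) and EPHB6 (0.026 and 0.016). With 1 library left out, MEDAG ran from -0.18 to 0.0063 (without P3 replicate 1), AJAP1 from -0.15 to 0.0065 (without P3 replicate 3), CXCL8 from -0.59 (without P24 replicate 3; -0.020 without P3 replicate 2) to 0.37, and, without P24 replicate 3 at the low end, FOSB from -0.22 to 0.94 and DIRAS3 from -0.012 to 1.17. The cause was not tested. Replicate numbers did not pair the libraries (correlations of same-numbered deviations between P3 and P24 of -0.0183, 0.0404 and 0.119), and a fit with the replicate block gave 4583 higher and 4804 lower.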
